A study of Mus musculus with 12 samples.

Results

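Txnip, Arrdc4, Mlx, Mlxip and Mlxipl were taken by symbol from a table of gene expression in MC38 cells, a mouse colon adenocarcinoma line, and all 5 had an entry among the 42329 entries of the table. Txnip and Arrdc4 encode paired members of the alpha-arrestin family, and the other genes encode the transcription factors that drive them when glucose is plentiful. Some cells carried sgControl, the control guide, and the others sgHcar1, directed at the lactate receptor gene Hcar1. Each population was given PBS, for a time the labels do not state, or 20 mM lactate for 24 hours, and each of the 4 groups has 3 libraries. The labels do not say whether either population is a clone or a pool, nor whether the 3 libraries of a group are separate cultures, so errors measure the spread between these libraries. The members were selected on measured values, since lower FPKM of Txnip with lactate in sgHcar1 cells had been seen in these same libraries. Their levels and changes are therefore given as a description, with no p. In GENCODE M21 on GRCm38, Txnip lies at chr3:96557957-96561883 on the plus strand and Arrdc4 at chr7:68736995-68749241 on the minus strand. Mlx lies at chr11:101087277-101092207, Mlxip at chr5:123394798-123457932 and Mlxipl at chr5:135089890-135138382, all on the plus strand. The identifiers of the table, such as MGP_C57BL6NJ_G0028037 for Txnip, belong to the C57BL/6NJ strain annotation, so members were matched by symbol.

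TXNIP, the thioredoxin-interacting protein, binds reduced thioredoxin and also directs glucose transporters off the cell surface. ARRDC4 is its closest relative and also restrains glucose uptake. MLX is a helix-loop-helix protein that binds DNA together with MondoA, the product of Mlxip, or with ChREBP, the product of Mlxipl. These pairs move to the nucleus when glucose 6-phosphate accumulates and act through carbohydrate response elements, which are built from E-box-like sequences in tandem. Txnip and Arrdc4 are the textbook targets of MondoA, and ChREBP is best known from liver and fat. Both genes thus serve as reporters of glucose 6-phosphate and feed back on glucose entry.

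The promoters of the arrestin genes are shown with E-box-like motifs, the kind through which these factors are known to act, and with the box of another factor, NF-Y. The windows are from RefSeq (GRCm38.p6) and run from 250 bases before to 50 bases after the annotated start, 5′ to 3′ on the strand of the gene. Capitals mark the 3 motifs searched, each on both strands. The first was the E-box CACGTG, and the second was a tandem with 2 copies of CACGNG and any 5 bases between them. The third was the NF-Y box CCAAT, and none of these overlapped in the windows shown. The Txnip window lies at chr3:96557707-96558006 on the plus strand and the Arrdc4 window at chr7:68749189-68749488 on the minus strand.
Txnip promoter: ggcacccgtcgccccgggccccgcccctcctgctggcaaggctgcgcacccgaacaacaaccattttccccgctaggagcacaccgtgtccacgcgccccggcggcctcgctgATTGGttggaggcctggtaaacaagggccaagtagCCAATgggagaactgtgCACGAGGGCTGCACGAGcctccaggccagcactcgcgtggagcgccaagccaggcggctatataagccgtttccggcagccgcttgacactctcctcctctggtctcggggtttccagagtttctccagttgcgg
Arrdc4 promoter: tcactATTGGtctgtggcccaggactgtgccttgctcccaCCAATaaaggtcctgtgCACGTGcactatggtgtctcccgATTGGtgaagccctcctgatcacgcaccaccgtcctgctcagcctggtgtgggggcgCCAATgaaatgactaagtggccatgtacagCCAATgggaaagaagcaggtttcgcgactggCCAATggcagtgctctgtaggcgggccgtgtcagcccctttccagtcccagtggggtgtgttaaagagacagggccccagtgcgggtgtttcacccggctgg
The Txnip window holds 1 tandem motif, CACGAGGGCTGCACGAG, whose first base is at -85 from the start. It also holds 2 CCAAT boxes, at -137 and -102, and no E-box. The Arrdc4 window holds 6 CCAAT boxes and 1 E-box, at -193, and these letters of the tandem do not occur in it. Across 32544 promoter windows of this length, 0.0492% held the tandem (16 windows), 7.17% held the E-box and 37.4% held a CCAAT box. Mlx had 1 E-box at -40 and 2 CCAAT boxes, Mlxip had 2 CCAAT boxes, and of the 2 windows of Mlxipl 1 had an E-box, at -98. A match describes the sequence and is not evidence that a factor was bound.

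The libraries were of similar depth. The table gives no read counts, but the steps between low values put the depth of each library at 0.746 to 1 of the deepest one, with 0.746 to 0.793 in sgHcar1 cells with lactate. Summed FPKM per library ranged from 310109 to 324562 with sgControl. With sgHcar1 it ranged from 362815 to 367977 in PBS, and from 411996 to 421984 in lactate. Where values at equal FPKM sums are given, each library was rescaled to a sum of 1000000, which also raises every value against the filter and the pseudocount. Hcar1 itself was listed at 0 in 11 of 12 libraries, so the guide could not be checked from its message. Of 6 colon epithelial markers with an entry, Epcam and Cdx2 were listed at 0 throughout. Krt18 averaged 0.0274 and 0 FPKM in sgControl cells in PBS and lactate against 46.2 and 113 FPKM in sgHcar1 cells, and Cdh1 averaged 1.72 and 4.53 FPKM against 0 and 0. The summed colon epithelial markers thus ran from 1.64 to 4.82 FPKM in sgControl libraries and from 44.9 to 114 FPKM in sgHcar1 libraries. In sgHcar1 cells nearly all of this sum was Krt18, and Krt8 and Vil1 averaged at most 0.208 FPKM in any group. The summed fibroblast markers ran from 11.9 to 16.1 and from 0.64 to 1.56 FPKM, with Thy1 and Lum at 0. Leukocyte markers added up to 1.39 to 6.94 FPKM over all libraries, nearly all of it Cd68, and endothelial markers to at most 0.748 FPKM. The 2 populations thus differed in far more than the members, and what these differences contribute to each comparison between guides was not tested.

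Txnip was the member that varied most. In sgControl cells in PBS it stood at 6.84, 7.04 and 6.58 FPKM in the 3 libraries, and in lactate at 1.08, 1.21 and 0.957 FPKM. In sgHcar1 cells it stood at 79.6, 78.5 and 79.1 FPKM in PBS and at 4.59, 3.96 and 4.16 FPKM in lactate. All 3 lactate libraries lay below all 3 PBS libraries in both populations, and no 2 of the 4 groups overlapped. The order of levels was sgHcar1 in PBS, sgControl in PBS, sgHcar1 in lactate and sgControl in lactate, so that lactate brought sgHcar1 cells below the PBS level of sgControl cells.

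Mean Txnip in sgControl cells was 6.82 ± 0.229 FPKM (SD, n = 3) in PBS and 1.08 ± 0.127 FPKM in lactate, a level 6.3 ± 0.77 times lower (SD of the ratio). In sgHcar1 cells it was 79.1 ± 0.537 FPKM in PBS and 4.24 ± 0.324 FPKM in lactate, 18.7 ± 1.43 times lower. On the log2(FPKM + 1) scale the limma changes were -1.91 ± 0.05 (SE) and -3.94 ± 0.05. Among 13736 genes these changes ranked 30 from the lowest in sgControl cells and 1 from the lowest in sgHcar1 cells. The difference between them, sgHcar1 minus sgControl, was -2.03 ± 0.08.

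This scale compresses the low levels reached in sgControl cells. With a pseudocount of 0.1 FPKM the changes were -2.55 ± 0.08 in sgControl and -4.19 ± 0.08 in sgHcar1 cells, and their difference was -1.64 ± 0.11. The direction of the difference was the same on both scales.

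Between guides, Txnip was 11.6 ± 0.397 times higher in sgHcar1 than in sgControl cells in PBS and 3.91 ± 0.549 times higher in lactate. The matching log2 differences were 3.36 ± 0.05 and 1.33 ± 0.05, which ranked 89 and 1051 from the highest. The gap between populations was thus narrower in lactate, which is the same difference of lactate effects seen from the other side.

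**Figure D1:**
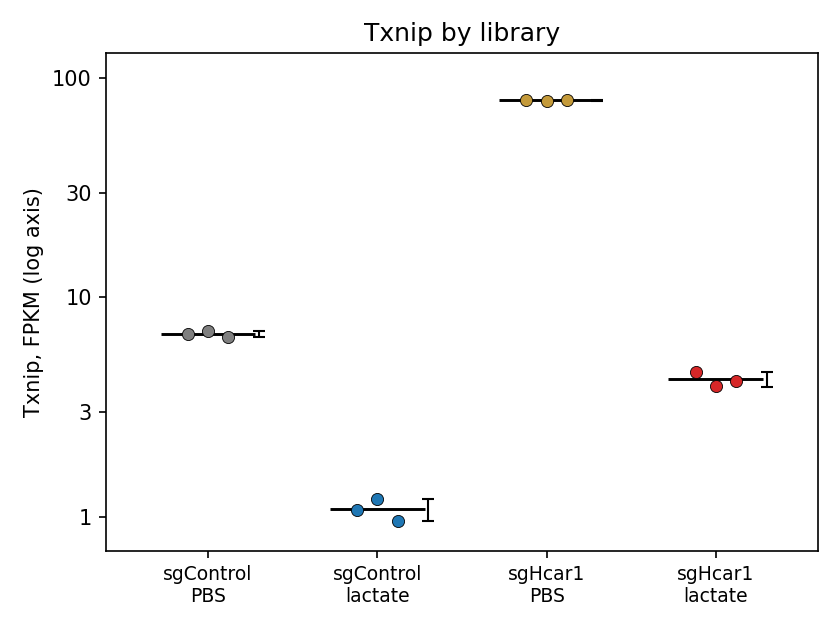
Txnip in each of the 12 libraries, in FPKM on a log axis, by guide and treatment; points are libraries, horizontal lines are means of 3 and bars at their right are SD. The 3 sgHcar1 libraries in PBS sit near 79 FPKM, the 3 sgControl libraries in lactate near 1 FPKM, and no groups overlap.

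The depth behind these values was ample in PBS and modest in lactate. The values of Txnip in the 12 libraries were whole multiples of 1 unit once relative depth was taken out, and the smallest whole numbers that fit were 371, 346 and 365 fragments in sgControl cells in PBS. They were 59, 63 and 48 fragments in lactate. In sgHcar1 cells they were 3865, 3768 and 4089 fragments in PBS and 200, 174 and 172 in lactate. The least covered group thus rested on 170 fragments over 3 libraries, and its libraries had a coefficient of variation of 11.7%, against 0.679% in sgHcar1 cells in PBS.

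An antisense gene lies across Txnip. Gm15441, on the opposite strand in GENCODE M21, averaged 0.0918 and 0.059 FPKM in sgControl cells in PBS and lactate, and 0.706 and 0.116 FPKM in sgHcar1 cells. Its highest level thus fell in the same group as that of Txnip. Whether counting used strand is not given in the sources used here, so reads of the pair may not be told apart. Of the neighbours of Txnip in the RefSeq order, Polr3gl, of RNA polymerase III, averaged 7.01 and 10.2 FPKM in sgControl cells in PBS and lactate and 5.46 and 9.29 FPKM in sgHcar1 cells, so it rose with lactate in both (limma log2 changes 0.48 and 0.67, adjusted p = 9.84e-05 and 4.83e-06). Lix1l fell by 0.24 and 0.42 on the log2 scale (adjusted p = 0.000481 and 3.93e-06). Ankrd34a averaged 1.22 and 0.637 FPKM in sgControl cells (-0.44) and 0.198 and 0.158 FPKM in sgHcar1 cells. Its mean was above the 1 FPKM of the filter only in sgControl cells in PBS. Its lower level with lactate there is thus a description. On the other side Hjv, Fcgr1 and BC107364 averaged at most 0.16 FPKM.

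Arrdc4 gave no signal to follow. It was listed at 0 in all 12 libraries, so no group could be compared and a depth of 0 fragments allows up to 3 in each library. In that it was like 9734 of the 30409 entries with a symbol (32% listed at 0 throughout). None of 66 entries for cytosolic ribosomal proteins and none of 37 for proteasome subunits were at 0, but Cox17, a copper chaperone that cytochrome oxidase needs, was. A listed 0 in this table is therefore not proof that a message was absent. Of the coding neighbours of Arrdc4, Igf1r, the receptor of insulin-like growth factor I, averaged 12.4 to 13.8 FPKM in the 4 groups, and Nr2f2, a nuclear receptor gene, averaged 3.6 to 9.38 FPKM.

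Other alpha-arrestins gave signal in all groups. Arrdc3, which restrains beta-adrenergic signalling, stood at 6.24, 7.27 and 5.94 FPKM in sgControl cells in PBS and at 1.76, 1.83 and 1.64 FPKM in lactate. In sgHcar1 cells it stood at 21.8, 21.3 and 20.8 FPKM in PBS and at 8.33, 8.37 and 7.57 FPKM in lactate. It fell with lactate in both populations, by 1.44 ± 0.06 and 1.29 ± 0.06 on the log2 scale (limma, adjusted p = 6.4e-09 and 8.8e-09), and no lactate library overlapped a PBS library of the same guide.

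Arrdc3 was also higher in sgHcar1 than in sgControl cells, by 1.58 ± 0.06 in PBS (adjusted p = 1.25e-09) and by 1.73 ± 0.06 in lactate (adjusted p = 4.41e-10). The difference of its lactate effects did not pass on this scale (0.15 ± 0.09, adjusted p = 0.178) but passed with a pseudocount of 0.1 FPKM (0.45, adjusted p = 0.00452), with the smaller fall in sgHcar1 cells. For Txnip the larger fall was in sgHcar1 cells on both scales. Over the 12 libraries its log2 level had a Pearson r of 0.934 with that of Txnip, against 0.261 for Arrdc1 and -0.458 for Arrdc2. These points share 4 groups, so r is a description.

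The rest of the family behaved in other ways. Arrdc1, which buds vesicles at the plasma membrane, fell with lactate in sgHcar1 cells from 9.02 ± 0.3 to 4.29 ± 0.0644 FPKM (-0.92 ± 0.04, adjusted p = 3.67e-09) and was at 8.4 ± 0.265 and 8.92 ± 0.42 FPKM in sgControl cells (0.08 ± 0.04, adjusted p = 0.123, and 0.13, adjusted p = 0.0237, at equal FPKM sums). The difference passed for Arrdc1 (-0.999 ± 0.06, adjusted p = 1.95e-07). Arrdc2 fell slightly in both, by 0.22 ± 0.07 (adjusted p = 0.015) and 0.26 ± 0.07 (adjusted p = 0.00453), and the first of these calls was lost at equal FPKM sums and without sgControl PBS replicate 3 or sgControl lactate replicate 2 (-0.19 to -0.16). Arrdc2 was lower in sgHcar1 cells in PBS (2.71 ± 0.0496 against 8.42 ± 0.89 FPKM, -1.34 ± 0.07, adjusted p = 8.49e-09). Arrdc5 reached at most 0.0618 FPKM, which is 1 recovered fragment. Of the 3 other alpha-arrestins tested, 2 fell with sgControl and 3 with sgHcar1, with medians of -0.22 and -0.92 beside medians of 0.000954 and 0 over all genes tested, where 31.9% and 35.4% of genes fell.

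**Figure D2:**
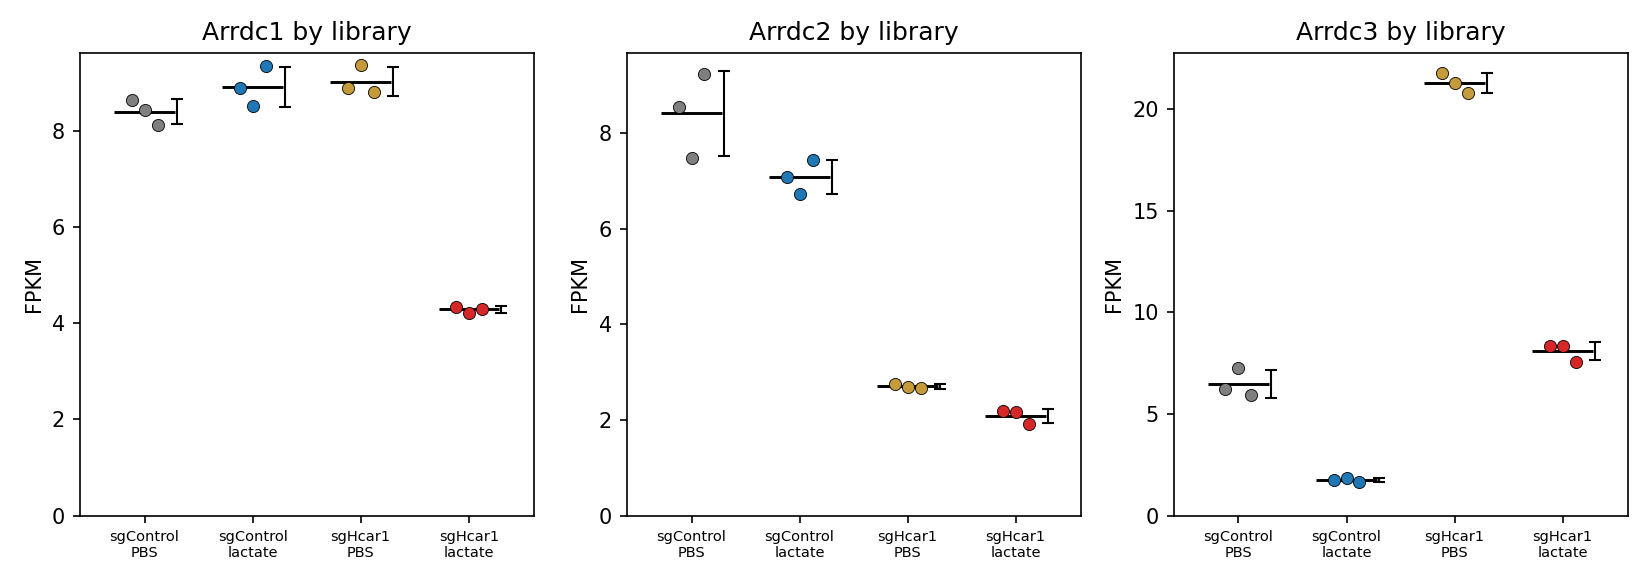
Arrdc1, Arrdc2 and Arrdc3 in each of the 12 libraries, in FPKM on linear axes from 0; points are libraries, horizontal lines are means of 3 and bars are SD. Arrdc3 is highest in sgHcar1 cells in PBS (20.8 to 21.8 FPKM) and lowest in sgControl cells in lactate, as Txnip is. Unlike Txnip, it is higher in sgHcar1 cells in lactate (mean 8.09 FPKM) than in sgControl cells in PBS (mean 6.48 FPKM). Arrdc1 and Arrdc2 follow other orders.

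The regulators varied over a narrower range of FPKM than Txnip, and neither Mlx nor Mlxip followed its order of levels. Mlx, the shared DNA-binding partner, stood at 10.5, 12 and 11.4 FPKM in sgControl cells in PBS and at 11.2, 11.6 and 11.7 FPKM in lactate, and these groups overlap. In sgHcar1 cells it stood at 12.8, 14.9 and 12.6 FPKM in PBS and at 16.4, 15.7 and 17 FPKM in lactate, with no overlap. The log2 changes with lactate were 0.03 ± 0.06 and 0.27 ± 0.06, and the difference was 0.24 ± 0.09.

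Mlx was thus highest in sgHcar1 cells in lactate. The difference lost its call without any 1 of 9 libraries, with values of 0.20 to 0.31 over the 12 libraries left out in turn. Between guides it was higher in sgHcar1 cells by 0.23 ± 0.06 in PBS and 0.47 ± 0.06 in lactate. These small values depend on the scale of the libraries: at equal FPKM sums the changes were 0.07 in sgControl and 0.10 in sgHcar1 cells, the difference was 0.02, and the guide differences were 0.07 and 0.09. The 3′ end of Mlx overlaps Psmc3ip on the other strand, which averaged 12 and 6.23 FPKM in sgControl cells in PBS and lactate and 8.73 and 5.57 FPKM in sgHcar1 cells.

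Mlxip, the gene of MondoA, was the more abundant of the glucose-sensing partners. It stood at 5.74, 5.49 and 5.32 FPKM in sgControl cells in PBS and at 6.95, 6.99 and 6.52 FPKM in lactate. In sgHcar1 cells it stood at 6.58, 6.29 and 7.45 FPKM in PBS and at 12.1, 11.3 and 11.7 FPKM in lactate. It was higher with lactate in both populations with no overlap, by 0.26 ± 0.06 and 0.71 ± 0.06 on the log2 scale, and the difference between these was 0.45 ± 0.08 (0.25 at equal FPKM sums).

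The order of Mlxip was sgHcar1 in lactate first and sgControl in PBS last, with sgControl in lactate and sgHcar1 in PBS overlapping between them. Its guide differences were 0.25 ± 0.06 in PBS and 0.70 ± 0.06 in lactate, and at equal FPKM sums 0.11 and 0.35. Mlxip was thus higher with lactate while its target Txnip was lower, in both populations. The message of a factor that is controlled by its location says nothing of how active the protein was.

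Mlxipl, the gene of ChREBP, was at or near 0 in every library. It was at 0, 0.0115 and 0 FPKM in sgControl cells in PBS and at 0 in all 3 libraries in lactate. In sgHcar1 cells it was at 0.0116, 0.0353 and 0.0545 FPKM in PBS and at 0 in all 3 libraries in lactate. These are 1 recovered fragment in sgControl cells and 1, 3 and 5 fragments in sgHcar1 cells, at or near the 3 fragments that a count of 0 allows. A difference between groups was not detectable at this depth in sgControl cells, and no fold is given for sgHcar1 cells.

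**Figure D3:**
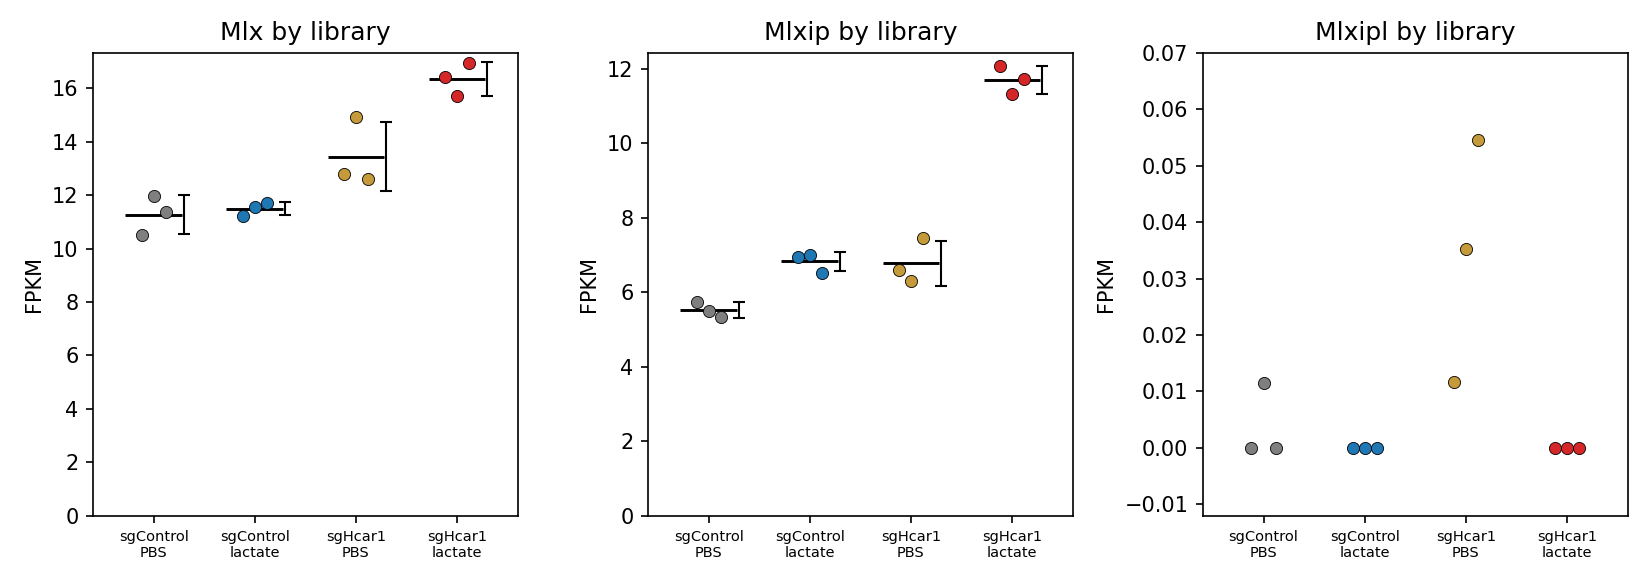
Mlx, Mlxip and Mlxipl in each of the 12 libraries, in FPKM on linear axes with a different range in each panel; points are libraries, and for Mlx and Mlxip lines are means of 3 and bars SD. Both Mlx and Mlxip are highest in sgHcar1 cells in lactate (15.7 to 17 and 11.3 to 12.1 FPKM), and Mlxipl does not exceed 0.0545 FPKM.

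Only 3 of the 5 members, Txnip, Mlx and Mlxip, passed the filter of 1 FPKM in at least 3 libraries. Of these, 2 had an adjusted p under 0.05 for lactate in sgControl cells (Txnip lower and Mlxip higher), where 65.7% of 13736 genes did, 33.9% higher and 31.9% lower. All 3 did in sgHcar1 cells (Txnip lower, 2 higher), where 72.2% of genes did, 36.8% higher and 35.4% lower. All 3 passed for the difference of the lactate effects (Txnip lower, 2 higher), beside 59.1% of genes, 30.4% higher and 28.7% lower. All 3 were also higher in sgHcar1 than in sgControl cells in PBS, where 76.7% of genes passed, 38.2% higher and 38.4% lower. The same held in lactate, where 82.2% of genes passed, 41.3% higher and 40.9% lower. Since most genes passed and the members were chosen with these contrasts in view, nothing is read from these counts. The levels of Mlx and Mlxip had a Pearson r of 0.843 over the 12 libraries, and those of Txnip had 0.164 with Mlx and -0.188 with Mlxip. Txnip had 0.806 with Mlxipl, which rests on at most 5 recovered fragments in a library. All of these describe 4 groups and not 12 independent conditions.

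The genes whose log2 level over the 12 libraries was most like that of Txnip were Dek, Smo, Clstn1, Miip and Zdhhc16. Dek, which encodes a chromatin protein, had a Pearson r of 0.997, and Zdhhc16, which encodes a palmitoyltransferase, had 0.994. Their range was smaller, since r does not see its size. Dek averaged 54.5 and 38.4 FPKM in sgControl cells in PBS and lactate and 94.9 and 49 FPKM in sgHcar1 cells. Smo, the gene of the Hedgehog signal transducer, averaged 13.4 and 7.58 FPKM and then 41.2 and 13 FPKM.

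MLX has other partners, the MXD proteins and MNT, through which it meets the MYC and MAX network, and 5 of the 7 network genes listed rose with lactate in each population. Mxi1, a MAX partner that opposes MYC, fell in both, with log2 changes of -0.50 ± 0.06 in sgControl cells (limma, adjusted p = 2.15e-05) and -1.11 ± 0.06 in sgHcar1 cells (adjusted p = 1.88e-08). Mxd1, a partner of MLX and MAX, rose in sgHcar1 cells from 1.1 ± 0.133 to 5.15 ± 0.538 FPKM (1.54 ± 0.08, adjusted p = 1.61e-08) and was at 1 and 1.22 FPKM in sgControl cells (adjusted p = 0.137). Mnt did the reverse, rising in sgControl cells from 17.4 ± 0.414 to 35.1 ± 2.21 FPKM (0.97 ± 0.08, adjusted p = 1.44e-06), with 10.7 and 11.2 FPKM in sgHcar1 cells (adjusted p = 0.577, and 0.0399 without sgHcar1 lactate replicate 2).

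The differences of the lactate effects passed for both, with 1.4 ± 0.12 for Mxd1 (adjusted p = 2.35e-06) and -0.91 ± 0.12 for Mnt (adjusted p = 6.04e-05). Mxd4 rose in both (0.68 ± 0.07 and 0.47 ± 0.07), as did Mga (0.51 ± 0.03 and 0.59 ± 0.03) and Max (0.60 ± 0.06 and 1.19 ± 0.06). Myc rose by 1.41 ± 0.05 in sgControl and 0.57 ± 0.05 in sgHcar1 cells. The medians of the 7 genes were 0.60 and 0.57, beside 0.000954 and 0 over all genes tested, of which 33.9% and 36.8% rose.

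Other genes known to answer glucose through MondoA or ChREBP did not move as one. Of 22 listed, 21 had an entry and 14 passed the filter, and the liver genes Pklr, Slc2a2, G6pc and Pnpla3 averaged at most 0.0338 FPKM. In sgControl cells 9 of the 14 fell, 4 rose and 1 did not pass, with a median of -0.28, where 31.9% of all genes fell and 33.9% rose. In sgHcar1 cells 7 fell, 3 rose and 4 did not pass, with a median of -0.21, where 35.4% of all genes fell and 36.8% rose. Rgs16 and Pfkfb3, of those that did not pass, averaged at most 0.362 FPKM in sgHcar1 cells. At equal FPKM sums 9 fell, 2 rose and 3 did not pass in sgHcar1 cells (median -0.39, beside -0.10 over all genes tested).

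The largest falls were in lipid synthesis. Elovl6, a fatty acid elongase, fell from 18.1 ± 0.45 to 5.2 ± 0.587 FPKM in sgControl cells (-1.63 ± 0.06, adjusted p = 1.33e-09) and from 22.6 ± 0.832 to 3.31 ± 0.0815 FPKM in sgHcar1 cells (-2.45 ± 0.06, adjusted p = 3.2e-11). Fasn, the fatty acid synthase gene, fell by 0.82 ± 0.06 and 2.02 ± 0.06, and Scd2, a desaturase gene, by 0.80 ± 0.03 and 1.94 ± 0.03. For all 3 of these genes the fall was larger in sgHcar1 cells (differences of -0.82 ± 0.08, -1.20 ± 0.09 and -1.13 ± 0.04, largest adjusted p = 1.02e-05). These lipid genes also answer to sterol-regulated factors and so are not specific reporters of MondoA.

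Hk2, the inducible hexokinase and a MondoA target, rose from 15.6 ± 1.41 to 29.7 ± 0.666 FPKM with sgControl (0.89 ± 0.06, adjusted p = 1.78e-07). With sgHcar1 it fell from 36.7 ± 0.422 to 25.2 ± 1.55 FPKM (-0.53 ± 0.06, adjusted p = 9.39e-06). The difference of -1.41 ± 0.08 passed (adjusted p = 2.25e-07). Klf10, a transcription factor induced by glucose, did the opposite, with -0.79 ± 0.07 in sgControl and 0.30 ± 0.07 in sgHcar1 cells (difference 1.09 ± 0.10, adjusted p = 3.59e-06). Its call in sgHcar1 cells was lost at equal FPKM sums (0.12, adjusted p = 0.206) and with quantile normalization (0.15, adjusted p = 0.0702). Mid1ip1, which aids fatty acid synthesis, rose in both, by 0.93 ± 0.07 and 0.39 ± 0.07. Fgf21, a stress hormone gene, averaged 0 and 0.217 FPKM in sgControl cells in PBS and lactate. In sgHcar1 cells it went from 0.0911 ± 0.041 to 2.17 ± 0.314 FPKM (1.53 ± 0.10). It met the filter only through this last group, in which it was high, so its change is a description and no p is given. Lower Txnip with lactate was thus accompanied by lower levels of some and higher levels of other genes of this class.

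**Figure D4:**
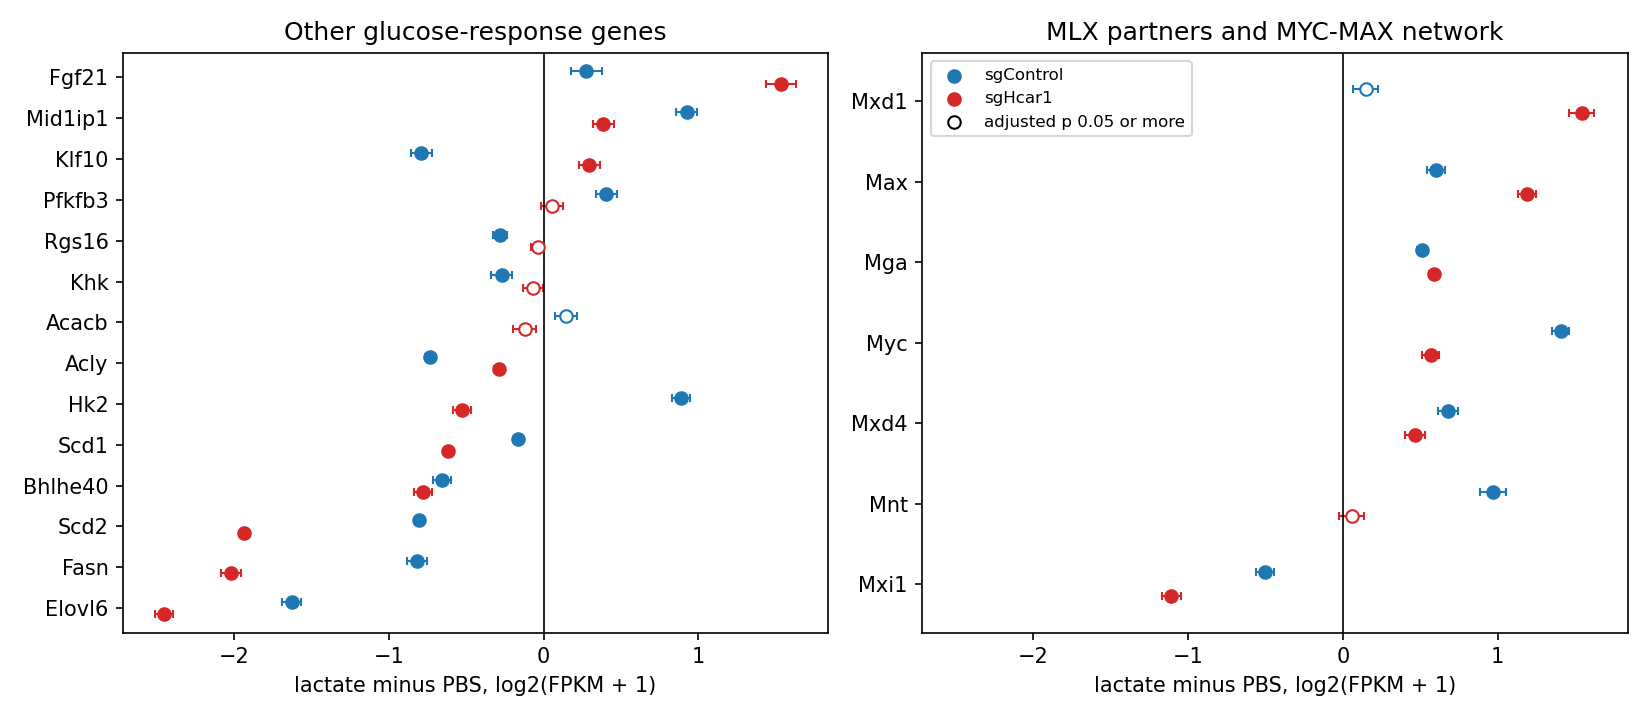
Change with lactate, as log2(FPKM + 1) in lactate minus PBS, for the tested genes of the glucose-response list and of the MLX, MYC and MAX network in sgControl and sgHcar1 cells; points are limma estimates with SE bars, and open points had an adjusted p of 0.05 or more. Elovl6, Fasn and Scd2 lie farthest left in sgHcar1 cells (-2.45, -2.02 and -1.94), and Hk2 and Klf10 take opposite signs in the 2 populations.

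Other genes share the tandem motif of Txnip. It was found in promoter windows of 15 genes, of which 13 had an entry and 8 besides Txnip passed the filter. With lactate 4 of the 8 rose and 2 fell in sgControl cells, and 4 rose and 3 fell in sgHcar1 cells. Since 31.9% and 35.4% of all genes fell and 33.9% and 36.8% rose, nothing is read from these counts about the motif. Fnip1, a partner of folliculin in nutrient sensing, rose in both, from 15.7 ± 0.655 to 32.4 ± 1.12 FPKM (1.00 ± 0.04, adjusted p = 6.07e-09) and from 9.52 ± 0.356 to 42.1 ± 1.94 FPKM (2.03 ± 0.04, adjusted p = 1.7e-11). Nfkb2, of the noncanonical NF-kB pathway, rose by 1.02 ± 0.03 and 0.84 ± 0.03. Rbmxl1 fell by 0.66 ± 0.07 in sgControl and 0.31 ± 0.07 in sgHcar1 cells. These genes were named after their values were seen, so their adjusted p values are a description and no test.

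Genes that set the supply of glucose 6-phosphate were looked at next. This list shares Hk2 and Pfkfb3 with the glucose-response list, and both count among the genes that rose in sgControl cells in each list. Of 14 tested genes of glucose uptake and the first steps of glycolysis, 8 fell and 4 rose in sgControl cells and 10 fell and 1 rose in sgHcar1 cells (medians -0.25 and -0.53), beside 31.9% and 35.4% of all genes that fell and 33.9% and 36.8% that rose. At equal FPKM sums 12 fell and 1 rose in sgHcar1 cells (median -0.72, beside -0.10 over all genes tested). Pfkl, the liver-type phosphofructokinase that draws on this pool, fell by 2.02 ± 0.04 and 1.77 ± 0.04 (adjusted p = 9.7e-12 and 1.23e-11). Hk1, the constitutive hexokinase that feeds it, fell by 0.90 ± 0.04 and 1.46 ± 0.04.

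The transporters differed from each other. Slc2a1, the gene of GLUT1, a transporter that TXNIP acts on, fell in sgHcar1 cells from 171 ± 2.92 to 107 ± 5.39 FPKM (-0.67 ± 0.04, adjusted p = 7.52e-08) and was at 79.4 ± 4.04 and 74.6 ± 1.47 FPKM in sgControl cells (-0.09 ± 0.04, adjusted p = 0.0978, and 0.0207 without sgControl PBS replicate 3). It was higher in sgHcar1 cells in PBS by 1.10 ± 0.04 (adjusted p = 9.02e-10), the group in which Txnip was highest. Slc2a6, a transporter of lysosomal membranes, rose by 1.87 ± 0.08 and 2.22 ± 0.08 (adjusted p = 5.43e-09 and 7.51e-10). Slc2a3 and Slc2a4 averaged at most 0.0812 FPKM.

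The binding partner of TXNIP fell too. Txn1, cytosolic thioredoxin, went from 426 ± 17 to 218 ± 8.48 FPKM in sgControl cells (-0.96 ± 0.05, adjusted p = 3.29e-08) and from 425 ± 16 to 301 ± 19.8 FPKM in sgHcar1 cells (-0.50 ± 0.05, adjusted p = 5.32e-06). Its message was far above that of Txnip in FPKM in every group, and in PBS it did not pass between the guides (-0.0016, adjusted p = 0.981) but was lower in sgHcar1 cells at equal FPKM sums (-0.18, adjusted p = 0.0036) and with quantile normalization (-0.42, adjusted p = 2.75e-06). Of 10 tested thioredoxin system genes 8 fell and 2 rose in sgControl cells, and 6 fell and 3 rose in sgHcar1 cells (medians -0.22 and -0.17), beside 31.9% and 35.4% of all genes that fell and 33.9% and 36.8% that rose. At equal FPKM sums 7 fell and 2 rose in sgHcar1 cells (median -0.36, beside -0.10 over all genes tested). The peroxiredoxin gene Prdx2 changed by -0.97 ± 0.05 and -0.61 ± 0.05, and mitochondrial Txn2 fell by 0.18 ± 0.04 with sgControl but rose by 0.47 ± 0.04 with sgHcar1. Txnrd1 had no entry under that symbol.

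Other known controls of TXNIP were described in the same way. Of 11 tested genes for NF-Y, ITCH, AMPK and REDD1, 6 fell and 3 rose in sgControl cells and 5 fell and 4 rose in sgHcar1 cells (medians -0.23 and -0.09), where 6 fell and 1 rose at equal FPKM sums. Of all genes 31.9% and 35.4% fell and 33.9% and 36.8% rose, so the counts in sgHcar1 cells were near the background. Itch, the ubiquitin ligase that marks TXNIP for breakdown, rose by 0.39 ± 0.04 and 0.51 ± 0.04 (adjusted p = 6.43e-06 and 4.49e-07). Nfya, a subunit of the CCAAT-binding factor NF-Y, fell by 0.46 ± 0.04 and 0.25 ± 0.04 (adjusted p = 1.1e-06 and 0.000108). The other subunit genes did not follow it throughout. Nfyb fell in sgControl cells (-0.29 ± 0.04, adjusted p = 6.61e-05) but rose in sgHcar1 cells (0.22 ± 0.04, adjusted p = 0.00039). That rise lost its call at equal FPKM sums (0.056, adjusted p = 0.276). Nfyc did not pass in sgControl cells (-0.19 ± 0.08, adjusted p = 0.0663) and fell in sgHcar1 cells (-0.49 ± 0.08, adjusted p = 0.00032).

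Ddit4, which encodes the TXNIP partner REDD1, had the largest change of these genes in sgHcar1 cells, where it fell from 134 ± 7.6 to 75.8 ± 6.4 FPKM (-0.82 ± 0.07, adjusted p = 5.21e-07). In PBS it was higher in sgHcar1 than in sgControl cells by 2.24 ± 0.07 (adjusted p = 7.83e-11). Prkaa2, a catalytic subunit of AMPK, averaged 0.868 and 1.72 FPKM in sgControl cells and at most 0.003 FPKM in sgHcar1 cells. The other catalytic subunit gene, Prkaa1, averaged 22.7 to 28.3 FPKM in the 4 groups. Nlrp3, the inflammasome sensor that TXNIP can bind, averaged at most 0.738 FPKM.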

How the data were processed

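Per the labels, total RNA of MC38 cells was extracted with Trizol and made into Illumina TruSeq libraries, 3 for each of 4 groups. The authors deposited 1 table of FPKM, per the file headers, with 1 column per library. Per the submitters' processing notes, the tools were featureCounts 1.5.0-p3 and HISAT2 2.0.5, and the build was GRCm38. Whether counting used strand, and which fragments make up the library total, is not given in the sources used here. The gene identifiers belong to the C57BL/6NJ annotation. Column letters were matched to groups through the titles, with the first letter of the sgHcar1 columns read by elimination.

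FPKM was tested as log2(FPKM + 1) with limma 3.58.1 (R 4.3.3, variance trend, 1 mean per group over 12 libraries, two-sided). The filter asked for 1 FPKM or more in 3 or more libraries and was met by 13736 of 42329 entries. Benjamini-Hochberg adjustment ran over all of them within each of 5 contrasts (threshold 0.05). The method was tested on 1 simulated contrast of 12352 genes, with 50 genes changed at each fold of 1.5, 2, 4 and 8. It recovered 98% to 100% of them, and 3.86% of its calls were false. Far fewer genes changed there than were called here, so the simulation does not test the scale of these libraries. Median changes and counts of lists come from this fit.

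Relative depth came from genes of at most 0.5 FPKM, whose ratios between libraries peak where both hold the same number of fragments. With it, the FPKM of a gene became the smallest set of whole numbers that fits all 12 libraries within 0.0001. These are called recovered fragments. A shared factor would escape this, and they cover counting error only.

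The members and lists were chosen with earlier results of these data known, so no p is given for a member. For the same reason, the adjusted p of a list gene only places it among all genes tested and is no independent support. Of the lists, those of up to 8 genes could be named in full and others by up to 4 genes per contrast, by size of change among genes past the threshold. A gene named for 1 of the 5 contrasts was also given for others. Klf10 and Slc2a1 came in through guide differences, and their changes with lactate in each population were not among the 4 largest of their lists. Genes below the filter, and genes given for a contrast where they did not pass, were named after their values were seen, as were Nfyb, Nfyc, Prkaa1 and Pfkfb3. Likeness took the 5 named symbols with the highest Pearson r to Txnip over 12 libraries. Arrdc4 has no variation, so its likeness is undefined. Promoter windows are from RefSeq (GRCm38.p6). Alternatives were a pseudocount of 0.1, other filters, scalings and variance settings, a replicate block, the compared groups alone, and each library left out in turn. Figures were drawn with matplotlib 3.10.9, and tables were made with pandas 2.3.3 under Python 3.11.15.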

Additional observations from a re-analysis of the deposited data

Results flagged for a closer look

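All 3 members that passed the filter were picked out by limma's fit of the difference between lactate effects, as were 59.1% of genes. The members were chosen with these effects in view, so this is a description and no test of them. The differences, sgHcar1 minus sgControl on the log2(FPKM + 1) scale, were -2.03 for Txnip, 0.24 for Mlx and 0.45 for Mlxip. That of Mlx was the only one of the 3 to lose its call under any alternative tried.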

How the results depend on the processing

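The 15 changes of Txnip, Mlx and Mlxip in 5 contrasts were recomputed 312 times, and 294 of these values kept their direction and side of the threshold. All values for Txnip did, with -2.55 to -1.87 for lactate in sgControl cells, -4.28 to -3.87 in sgHcar1 cells and -2.07 to -1.64 for the difference. The exceptions were those of Mlx and 1 of Mlxip. The Mlx difference of 0.24 lost its call without a filter (0.24), with quantile normalization (0.20) and at equal FPKM sums (0.025). It also lost it without any one of 9 libraries, including sgControl PBS replicate 2, with values of 0.20 to 0.31 over all libraries left out. At equal sums Mlx also lost its calls for lactate in sgHcar1 cells (0.10) and between guides in PBS (0.069) and lactate (0.094), and Mlxip lost its call between guides in PBS (0.11). Mlx with lactate in sgControl cells, which had no call, turned sign with quantile normalization (-0.030) and without sgControl PBS replicate 1 (-0.018, range -0.018 to 0.069). Of 78 changes of other named genes, Nfyb and Nfyc not included, recomputed 1616 times, 1599 values kept direction and call. The signs that turned, none of them with a call, were those of Mnt in sgHcar1 cells with quantile normalization (-0.028), at equal sums (-0.12) and without sgHcar1 lactate replicate 1 (-0.000778), and of Txn1 between guides in PBS without replicate 3 of sgControl PBS (0.028) or sgHcar1 PBS (0.027). Leaving out 1 sgHcar1 lactate library at a time gave -0.000778 to 0.16 for Mnt. Why these values moved was not tested.

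Equal sums, set at 1000000 and so also lowering the filter and the pseudocount in effect (16366 genes tested), moved the median change of all genes to -0.18 for the difference, -0.16 and -0.35 between guides in PBS and lactate, and -0.10 for lactate in sgHcar1 cells. The share of higher genes among those called went from 51.4% to 31% for the difference, from 49.9% to 38.2% and from 50.3% to 32% between guides, and from 50.9% to 39.9% for lactate in sgHcar1 cells. Keeping genes with a mean of at least 5 FPKM left 6815 calls between guides in PBS (10529 in the report's fit) and 7191 in lactate (11292), with fewer genes tested. With a replicate block 8938 genes passed for lactate in sgControl cells and 9899 in sgHcar1 cells, beside 9031 and 9917 without it, and the block ended no call of a member. It turned Slc2a1 with lactate in sgControl cells into a call (-0.087, adjusted p = 0.0246). The deviations of same-numbered libraries correlated by -0.0505 to 0.085 over 18 pairs. A library correlated best with its own number in 11 of 36 comparisons with another group, and 0 of 12 libraries did so in all other groups. These values give no sign of pairing by number, but they cannot show how the libraries were handled. Depth limits Mlxipl, which had at most 5 recovered fragments in a library. Arrdc4 was listed at 0 throughout, and whether depth or another step of the processing gave this 0 was not tested.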
